A study of Danio rerio with 6 samples.

Results

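Bile acid synthesis, recovery and feedback were followed through 7 genes in RNA from pools of whole zebrafish larvae. The 7 were the rows of the deposited gene table whose symbol was cyp7a1, cyp8b1, slc10a2, fabp6, nr1h4, nr0b2a or fgf19. All 7 were found, 1 row each, among the 24826 genes of the table, and all 7 passed the filter on low counts.

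The leachate group was wild-type larvae kept in a leachate of tire wear particles named TWP 700, and the control group was wild-type larvae kept in medium with 0.001% bovine serum albumin, called the surfactant control. Whether the leachate medium also held albumin is not recorded in the sources used here. The titles of the samples use the number 700 as a treadwear grade and the design text lists it among concentrations, so it serves here only as a name. Both groups were exposed from 4 to 168 h after fertilization with 200 eggs per dish, were moved to clean dishes at 72 h, and carry no engineered allele. Each group had 3 samples, each a pool of 80 larvae, so that variation between single larvae was not measured, and the labels call the pools biological replicates.

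In vertebrates, bile acids or bile alcohols are made from cholesterol in the liver, secreted into bile to help absorb fat, taken up again in the distal intestine and returned to the liver. Their amount is held in check by feedback. In mammals the nuclear receptor FXR senses bile acids and induces the repressor SHP in the liver and a fibroblast growth factor in the ileum, and both lower the transcription of the synthesis enzymes. Zebrafish bile holds mainly sulphated bile alcohols, and most of the roles below are known from mice and humans.

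The enzyme gene cyp8b1 was higher and the repressor gene nr0b2a was lower in leachate larvae, each by the test across all genes. The other 5, cyp7a1, slc10a2, fabp6, nr1h4 and fgf19, did not pass that test. The call of cyp8b1 held in 17 of 17 alternative settings, that of nr0b2a in 11 of 17. Beyond the 7, 6 of 18 transport genes rose in the leachate group, the exporter genes slc51a, abcb11a, abcb11b, abcc2, abcc4 and abcb4. Of these, abcb11b lost its call without most single samples. A further 11 of the 18 did not pass, the exporter genes abcc3, abcg5 and abcg8 among them. The gene atp8b1 fell, a call lost without any 1 of the leachate samples and with plain library totals. The test was edgeR's quasi-likelihood test on the counts, with p-values adjusted by the Benjamini-Hochberg method over 23761 genes and a threshold of 0.05. It called 15.2% of all genes tested, 7.87% as higher and 7.29% as lower in leachate larvae, against 28.6% of the 7 genes, which is 1 higher and 1 lower. Over all genes, 1871 were called higher and 1731 lower, against 2809 and 868 with plain library totals instead of TMM scaling, which moved the median of all genes by 0.13 on the log2 scale. With only 7 genes their share is not a result about the group, and each gene is described on its own.

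Levels are given as CPM, read counts scaled by TMM-adjusted library size, when samples are compared, and as the authors' TPM, which also correct for gene length, when genes are compared. TPM ran higher in leachate larvae for most genes: the median log2 difference over the table was 0.17, against -0.0026 for the fitted fold changes of the tested genes. Directions of single genes between groups are therefore taken from CPM, except that cyp7a1b is given only in TPM. Ratios within a pool and sums of markers are in TPM unless stated, and the sums are not corrected for this difference. Samples held between 37030725 counts (control 2) and 48431952 counts (control 1). Control 2 stood apart from controls 1 and 3 on the second principal component, which held 20.4% of the variance, and leachate 1 lay toward the same side. Control 2 also had the lowest summed TPM of enterocyte and of exocrine pancreas markers. Many of the values and counts that change without it are therefore also given without it. For some list genes whose call was lost without control 2, the value without it is not printed.

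By TPM, fabp6 was the most abundant of the 7 genes, with means of 548 ± 75.7 TPM in leachate larvae and 526 ± 112 TPM in control larvae (SD, n = 3 each). That level placed it at rank 244 in the leachate group and rank 242 in the control group among 24826 genes. Next came cyp7a1, at 32.9 ± 2.55 TPM in leachate larvae and 36.6 ± 7 TPM in control larvae. In leachate larvae the order then ran cyp8b1 (17.9 TPM), slc10a2 (15.3 TPM), fgf19 (5.43 TPM), nr0b2a (5.34 TPM) and nr1h4 (4.37 TPM). In control larvae it ran slc10a2 (10.1 TPM), nr0b2a (8.14 TPM), cyp8b1 (7.57 TPM), fgf19 (4.73 TPM) and nr1h4 (3.11 TPM). In the leachate group the samples of cyp8b1 lay between 16.7 and 19.7 TPM and those of slc10a2 between 14.4 and 16.1 TPM, so these neighbours did not overlap, whereas fgf19 overlapped with nr0b2a and with nr1h4. In the control group slc10a2, nr0b2a and cyp8b1 overlapped with each other, and fgf19 overlapped with nr0b2a and with nr1h4.

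Synthesis is represented by cyp7a1 and cyp8b1. The gene cyp7a1 (Gene ID 394148) encodes cholesterol 7-alpha-hydroxylase, the first and rate-limiting enzyme of the classic pathway in mammals. It was measured at 41.2, 57.9 and 53.0 CPM in leachate larvae 1 to 3, against 70.1, 59.0 and 57.9 CPM in control larvae 1 to 3. The lowest sample was leachate 1 and the highest was control 1, and leachate 2 lay level with control 3, so the groups met at their edges. The log2 fold change was -0.30 ± 0.14 (SE), with a 95% interval from -0.61 to 0.012 and an adjusted p = 0.185 by edgeR, and cyp7a1 did not pass the test. The interval leaves room for a level in leachate larvae from 0.656 to 1.01 times that of controls. Without leachate 1 the log2 fold change was -0.17 (adjusted p = 0.446).

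The gene cyp8b1 (Gene ID 445281) encodes sterol 12-alpha-hydroxylase, which in mammals adds the hydroxyl group that separates cholic acid from chenodeoxycholic acid. Leachate larvae 1 to 3 held 23.3, 32.0 and 26.9 CPM, against 14.5, 10.9 and 13.4 CPM in control larvae 1 to 3. Every leachate sample lay above every control sample. Of all genes tested, 35.1% had groups without overlap, 17.9% with leachate above and 17.1% with leachate below, against 2 of the 7 genes here. The log2 fold change was 1.08 ± 0.15 (SE), a 2.12-fold rise with a 95% interval from 1.69 to 2.65, and the adjusted p was 8.57e-04 by edgeR. The rise passed the test in 17 of 17 alternatives, with log2 values between 0.96 and 1.21, and the log2 fold change was 1.08 without control 2 and leachate 1 together.

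**Figure D1:**
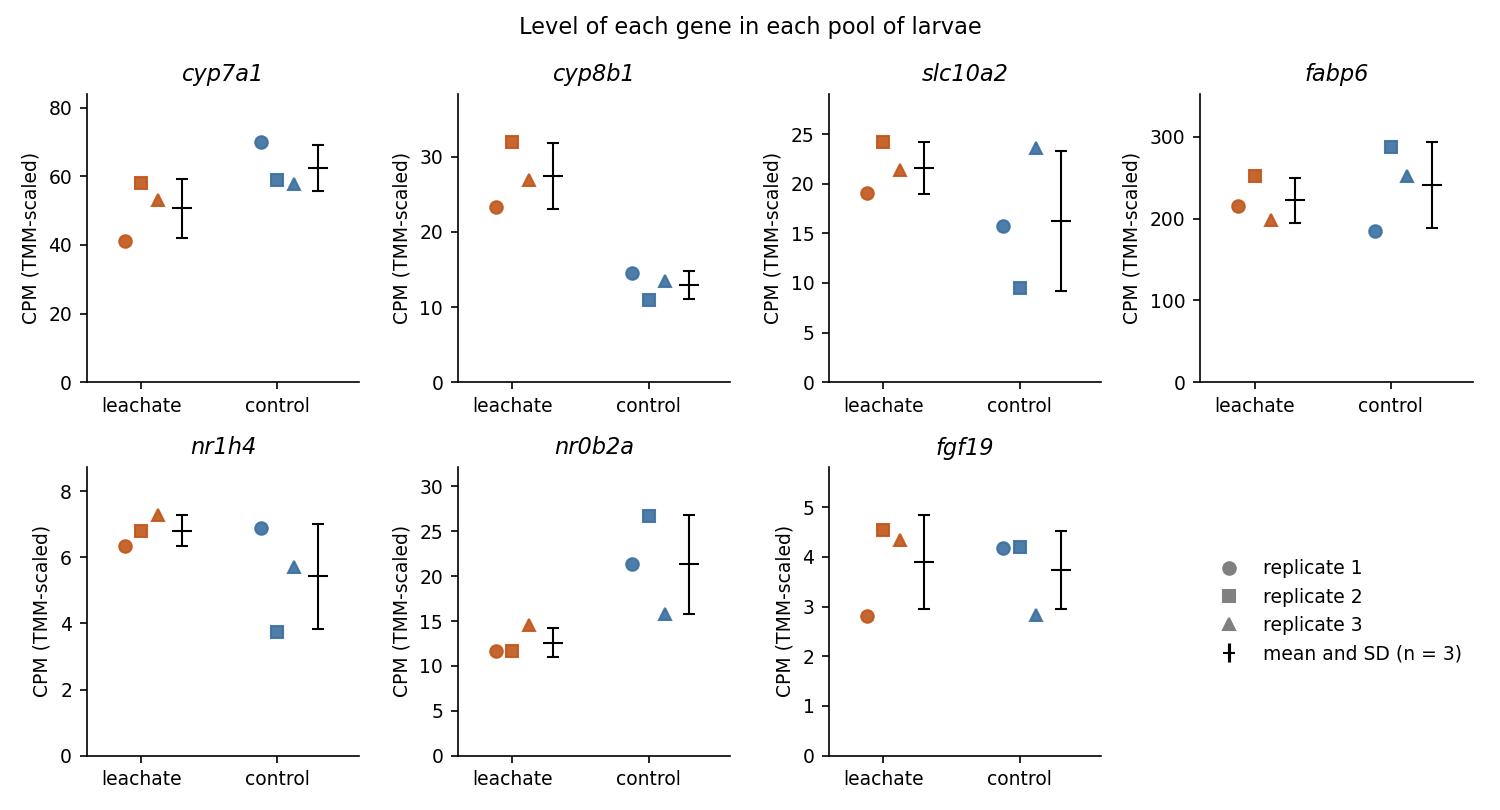
Level of each of the 7 genes in each pool, in TMM-scaled CPM on the vertical axis from 0, with leachate pools on the left and control pools on the right of each panel. Shapes mark the replicate number, and the cross bar with whiskers is the mean with its SD over 3 pools. The groups separate for cyp8b1 (leachate 23.3 to 32.0, control 10.9 to 14.5 CPM) and for nr0b2a (leachate 11.6 to 14.5, control 15.8 to 26.8 CPM).

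Within each pool the level of cyp8b1 was set against that of cyp7a1. The TPM of cyp8b1 was 0.568, 0.555 and 0.509 times that of cyp7a1 in leachate larvae 1 to 3, against 0.207, 0.185 and 0.233 times in control larvae 1 to 3. The groups did not overlap, and the ratio was 2.62-fold higher in leachate larvae. The exact two-sided permutation test gave p = 0.1, the smallest p that 3 samples against 3 allow, and 0.15 adjusted over the 3 ratios computed. The pair was chosen with the fold changes of both genes known.

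Copies of both enzyme genes exist in zebrafish. RefSeq's table of a later assembly places cyp8b1 inside the span of cyp8b2, with cyp8b3 as the next gene, and the sources used here do not say how reads shared by overlapping or similar genes were assigned. Of the counts of these 3 genes, cyp8b1 held 88.8% to 91.1% in leachate larvae and 86.7% to 89.6% in control larvae. cyp8b3 was measured at 1.55, 1.54 and 1.94 CPM in leachate larvae, against 1.08, 0.681 and 0.776 CPM in control larvae. It rose by the same test (log2 0.97 ± 0.28, adjusted p = 0.0378 by edgeR), a call lost without any 1 of leachate 1, leachate 2, leachate 3, control 2 and control 3 (adjusted p between 0.0636 and 0.131). cyp8b2 was at 1.28, 1.58 and 1.45 CPM in leachate larvae, against 1.14, 0.708 and 0.776 CPM in control larvae (log2 0.70, adjusted p = 0.123 by edgeR), and did not pass; it is named as a copy, after its values were seen. All 3 copies had higher values in the leachate group, and counts of the copies cannot be taken as independent. The gene cyp7a1b, looked at after its values were seen, was at 1.26, 1.64 and 1.1 TPM in leachate larvae and 0.953, 1.22 and 1.06 TPM in control larvae, and these ranges overlapped.

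Recovery in the intestine is represented by slc10a2 and fabp6. The gene slc10a2 (Gene ID 393329) encodes the apical sodium-dependent transporter that takes bile salts into ileal cells. It was at 19.1, 24.2 and 21.4 CPM in leachate larvae 1 to 3, against 15.7, 9.47 and 23.6 CPM in control larvae 1 to 3. The leachate samples lay close together, while the controls ran from control 2, the lowest of all, to control 3, which lay among the leachate samples. In TPM, which ran higher in leachate larvae for most genes, the groups did not overlap. On that scale control 3 (13.3 TPM) lay below the leachate samples (14.4 to 16.1 TPM). For slc10a2 the log2 fold change was 0.41 ± 0.30 (SE), with a 95% interval from -0.30 to 1.12 and an adjusted p = 0.429 by edgeR. This value depended on single controls: it was 0.14 without control 2 (adjusted p = 0.645) and 0.77 without control 3 (adjusted p = 0.0411, which passes). With control 2 and leachate 1 both left out it was 0.23 (adjusted p = 0.373).

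The gene fabp6 (Gene ID 415166) encodes the ileal bile acid-binding protein, also called gastrotropin, which carries bile salts across the cell. Leachate larvae 1 to 3 held 216, 253 and 199 CPM, against 184, 288 and 253 CPM in control larvae 1 to 3. The leachate samples lay within the range of the controls, with the lowest value in control 1 and the highest in control 2. For fabp6 the log2 fold change was -0.12 ± 0.17 (SE), with a 95% interval from -0.50 to 0.26 and an adjusted p = 0.7 by edgeR, and the interval spans levels from 0.707 to 1.2 times that of controls. Its sign turned without control 2, where the log2 fold change was 0.025 (adjusted p = 0.939).

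The members of the recovery pair did not move together in control 2, which held the least slc10a2 and the most fabp6. The TPM of slc10a2 was 0.0255, 0.0277 and 0.0312 times that of fabp6 in leachate larvae 1 to 3, against 0.0246, 0.00951 and 0.027 times in control larvae 1 to 3. Controls 1 and 3 lay at or near the leachate samples and control 2 lay well below, and the exact two-sided permutation test gave p = 0.2 (0.2 adjusted over the 3 ratios).

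Feedback is represented by nr1h4, nr0b2a and fgf19. The gene nr1h4 (Gene ID 436847) encodes FXR, the receptor that binds bile acids. It was at 6.35, 6.81 and 7.28 CPM in leachate larvae 1 to 3, against 6.87, 3.73 and 5.70 CPM in control larvae 1 to 3. Control 1 lay among the leachate samples and controls 2 and 3 lay below them. For nr1h4 the log2 fold change was 0.32 ± 0.21 (SE), with a 95% interval from -0.13 to 0.77 and an adjusted p = 0.334 by edgeR. It was 0.11 without control 2 (adjusted p = 0.697) and 0.53 without control 1 (adjusted p = 0.164), so nr1h4 did not pass in these fits either.

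The gene nr0b2a (Gene ID 403010) encodes SHP, a nuclear receptor without a DNA-binding domain that in mice is induced by FXR and represses the synthesis enzymes. Leachate larvae 1 to 3 held 11.6, 11.7 and 14.5 CPM, against 21.4, 26.8 and 15.8 CPM in control larvae 1 to 3. Every leachate sample lay below every control sample, with control 3 only just above leachate 3. For nr0b2a the log2 fold change was -0.76 ± 0.18 (SE), a level 0.591 times that of controls with a 95% interval from 0.447 to 0.783, and the adjusted p was 0.0194 by edgeR. The call rested on single pools: it was lost without leachate 1 (adjusted p = 0.0792), without leachate 2 (0.0861) and without control 1 (0.0662), and with plain library totals instead of TMM scaling (0.0579). It held without control 2 (log2 -0.56, adjusted p = 0.0263) and with both control 2 and leachate 1 left out (log2 -0.51, adjusted p = 0.0281). In TPM the groups overlapped, since control 3 (5.31 TPM) lay among the leachate samples (5.57, 4.62 and 5.81 TPM).

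Set against its activator gene in the same pool, nr0b2a stood at 1.21, 1.13 and 1.32 times the TPM of nr1h4 in leachate larvae 1 to 3, against 2.06, 4.73 and 1.83 times in control larvae 1 to 3. Each leachate ratio lay below each control ratio, and the ratio in leachate larvae was 0.466 times that in controls. The exact two-sided permutation test gave p = 0.1, again the smallest possible, and 0.15 adjusted over the 3 ratios. Most of the width among the controls came from control 2, where nr1h4 was lowest and nr0b2a highest. Controls 1 and 3 lay nearer the leachate ratios, at 2.06 and 1.83. Since nr0b2a was called lower and nr1h4 had a positive log2 fold change (0.32), the lower ratio adds no support beyond those fold changes.

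**Figure D2:**
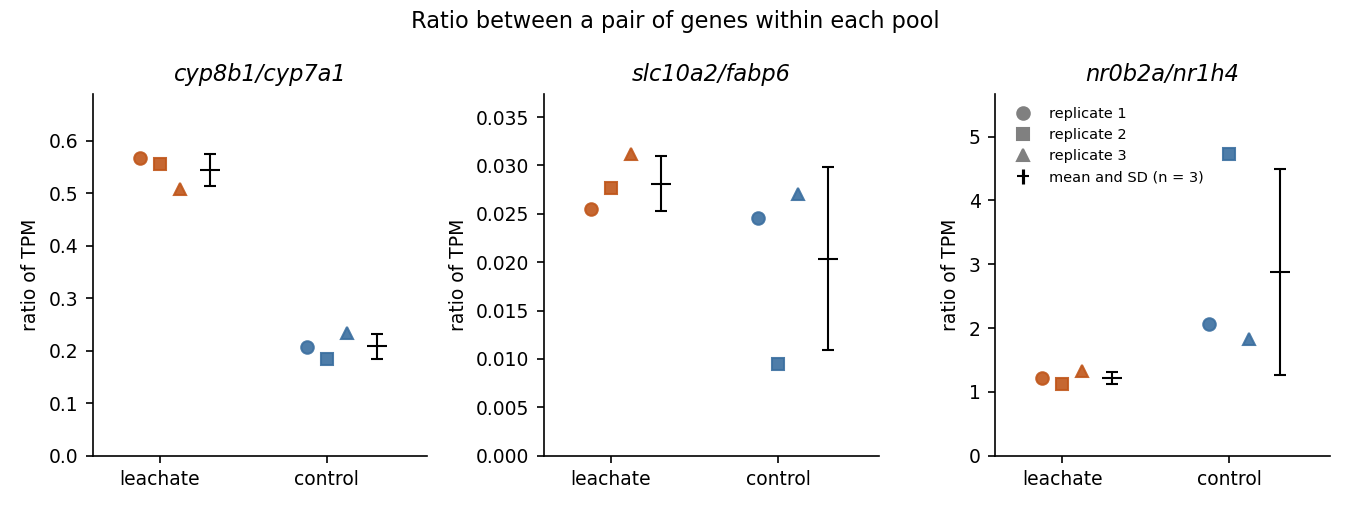
Ratio of TPM between a pair of genes within each pool, on a linear vertical axis from 0, with leachate pools on the left and control pools on the right of each panel. Shapes mark the replicate number and the bar with whiskers is the mean with its SD over 3 pools. The ratio of cyp8b1 to cyp7a1 lies between 0.509 and 0.568 in leachate pools and between 0.185 and 0.233 in control pools, and control 2 stands apart in the other ratios.

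The gene fgf19 (Gene ID 368245) encodes a growth factor that in humans is released by the ileum after a meal and signals to the liver, and that in zebrafish embryos also acts in the development of the brain and eye. It had the fewest reads of the 7 over all samples together, between 125 and 198 counts in leachate samples and between 117 and 201 in control samples. Its levels were 2.81, 4.54 and 4.34 CPM in leachate larvae 1 to 3, against 4.17, 4.19 and 2.84 CPM in control larvae 1 to 3. Each group held 1 low pool, leachate 1 and control 3, and the ranges overlapped almost completely. For fgf19 the log2 fold change was 0.060 ± 0.23 (SE), with a 95% interval from -0.45 to 0.57 and an adjusted p = 0.897 by edgeR. Its sign turned without leachate 2 (-0.059), without leachate 3 (-0.023) and without control 3 (-0.11). In RefSeq's table of a later assembly fgf19 overlaps ano1a, which is not analysed here, and reads they share cannot be told apart. RNA from whole larvae does not tell ileal fgf19 from that of other tissues.

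The rest of the pathway was described with lists of synthesis, transport and regulator genes. These lists were chosen with earlier results of these data known, so their shares are not independent evidence. Of 18 transport genes measured and tested, 6 were higher and 1 was lower in leachate larvae. That is 33.3% and 5.56% against 7.87% and 7.29% of all genes, and 29.4% of the enterocyte markers described below were called higher. Without control 2 the number lower was 4, and it was 3 with leachate 1 left out as well. With library totals, or without any 1 leachate sample, edgeR called 0 lower. On all samples DESeq2 and limma-voom each called 1 lower, and 9 of the 18 genes had an unadjusted p under 0.05 in either direction by edgeR. The number higher was 5 or 6 in each of these fits. The list's median log2 value was 0.073, against -0.0026 for all genes tested, and the 11 genes not called lay between -0.43 and 0.30. Among those 11 were abcc3, abcg5 and abcg8, named after their values were seen. The 6 that rose were slc51a and 5 ATP-binding cassette exporter genes, and they rose by 1.61-fold to 1.86-fold.

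The gene slc51a encodes a subunit of the transporter that passes bile salts from ileal cells to the blood in mammals. It was at 30.4, 36.9 and 32.0 CPM in leachate larvae 1 to 3, against 17.7, 20.3 and 23.6 CPM in control larvae 1 to 3, without overlap. The log2 fold change of slc51a was 0.69 ± 0.13 (SE) with an adjusted p = 0.00535 by edgeR. It therefore rose where the uptake gene slc10a2 did not pass the test, although the difference between these fold changes was not tested. Its partner subunit is not analysed here.

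The gene of the bile salt export pump of mammals has the copies abcb11a and abcb11b in zebrafish, and which of them serves as the pump was not tested here. abcb11a was at 8.83, 9.10 and 9.59 CPM in leachate larvae 1 to 3, against 5.52, 4.38 and 4.85 CPM in control larvae 1 to 3 (log2 0.90 ± 0.14, adjusted p = 0.00224 by edgeR). abcb11b was at 32.4, 19 and 17.8 CPM in leachate larvae, against 15.2, 12.1 and 13.0 CPM in control larvae (log2 0.78 ± 0.22, adjusted p = 0.0454 by edgeR). The groups did not overlap for either copy, but leachate 1 stood far above the other abcb11b values. The log2 fold change of abcb11b was 0.45 without leachate 1, and its call was lost without any 1 of leachate 1, leachate 2, control 1, control 2 and control 3 (adjusted p between 0.0522 and 0.12). The call of abcb11a held without any 1 sample.

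The exporter genes abcc2, abcc4 and abcb4 rose by similar amounts. abcc2, whose product carries conjugated organic anions into bile in mammals, was at 133, 138 and 131 CPM in leachate larvae and 72.7, 59.0 and 83.9 CPM in control larvae (log2 0.90, adjusted p = 0.00169 by edgeR). abcc4, whose product can carry bile salts back to the blood in mammals, was at 62.0, 56.7 and 64.8 CPM in leachate larvae and 33.4, 32.1 and 33.3 CPM in control larvae (log2 0.89, adjusted p = 3.06e-04 by edgeR). abcb4, known in zebrafish as a multidrug exporter, was at 143, 157 and 151 CPM in leachate larvae and 85.5, 72.9 and 90.9 CPM in control larvae (log2 0.85, adjusted p = 0.00118 by edgeR). For each of these 3 genes the groups lay well apart and the call held without any 1 sample. The related exporter gene abcc3, named after its values were seen, was at 27.1, 24.2 and 28.8 CPM in leachate larvae and 20.9, 28.0 and 26.6 CPM in control larvae, and these overlapped (log2 0.084, 95% interval -0.20 to 0.37, adjusted p = 0.722 by edgeR).

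The transport gene that fell was atp8b1, which encodes a membrane lipid flippase and is mutated in a human form of cholestasis. It averaged 27.6 ± 2.44 CPM in leachate larvae and 40.0 ± 5.87 CPM in control larvae (log2 -0.54, adjusted p = 0.0168 by edgeR), and its call was lost without leachate 1, leachate 2 or leachate 3 (adjusted p between 0.0501 and 0.0561). The liver uptake gene slc10a1, named for its role after its values were seen, averaged 1.56 CPM in leachate larvae and 2.11 CPM in control larvae and did not pass (log2 -0.43, adjusted p = 0.225 by edgeR).

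**Figure D3:**
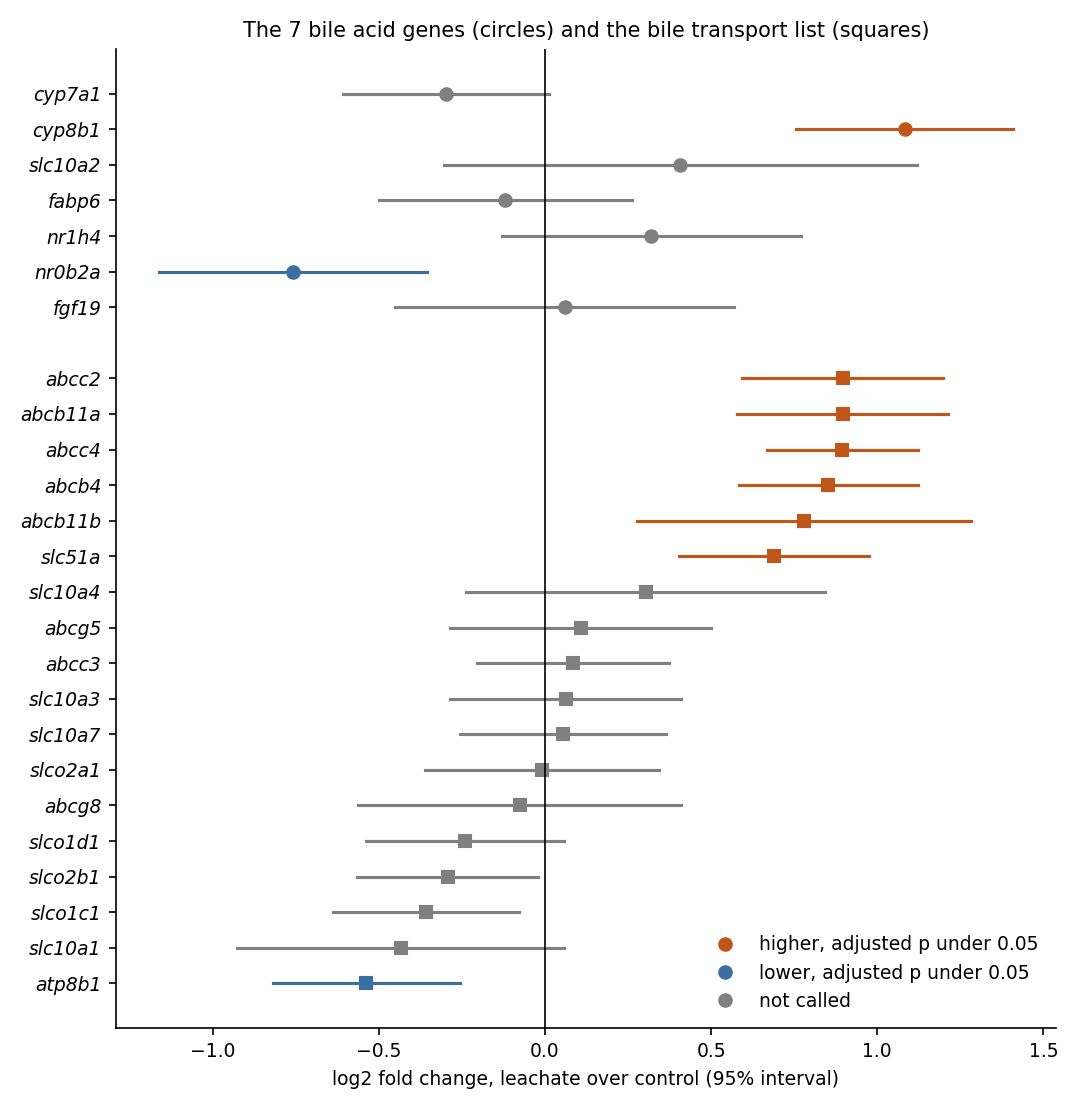
Log2 fold change of leachate over control on the horizontal axis, with its 95% interval, for the 7 bile acid genes (circles) and the 18 genes of the transport list (squares, sorted by fold change). Orange marks genes called higher, blue genes called lower and grey genes not called at an adjusted p under 0.05 by edgeR. cyp8b1 (1.08) and 6 transport genes (0.69 to 0.90) lie to the right, nr0b2a (-0.76) and atp8b1 (-0.54) to the left.

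Of 32 further synthesis genes measured, 31 were tested, 5 were higher and 3 were lower in leachate larvae, which is 16.1% and 9.68% against 7.87% and 7.29% of all genes. The number higher was 10 with library totals and 1 to 3 without single samples, with 1 without leachate 3 and 2 without control 2, and the number lower was 1 to 2 without single samples. The median log2 fold change was 0.12. Calls that held without any 1 sample were those of cyp39a1 and cyp46a1.1. cyp39a1, which encodes an oxysterol 7-alpha-hydroxylase of a side branch of synthesis in mammals, was at 1.46, 0.963 and 1.79 CPM in leachate larvae and 3.55, 3.48 and 3.35 CPM in control larvae (log2 -1.30 ± 0.24, adjusted p = 0.00509 by edgeR). cyp46a1.1, which encodes a cholesterol 24-hydroxylase known mainly from the mammalian brain, was at 2.03, 1.45 and 1.76 CPM in leachate larvae and 0.664, 0.653 and 0.776 CPM in control larvae (log2 1.32 ± 0.27, adjusted p = 0.00809 by edgeR). These enzyme genes of side branches thus moved in opposite directions.

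The related gene cyp46a1.3 also rose (log2 0.77, adjusted p = 0.0111, and 0.0566 without leachate 3, by edgeR). The calls of scp2b, slc27a2b and cyp8b3 among the rises and of slc27a2a and ch25hl1.1 among the falls were each lost without 4 or more of the single samples. The genes hsd3b7, cyp27a7 and cyp7b1, of enzymes that work beside or after cyp7a1, did not pass. They were picked for their place in the route after their values were seen. They do not stand for the whole route, in which cyp8b1 and the genes listed just above were called. hsd3b7, which encodes the steroid dehydrogenase that acts next to cyp7a1 in mammals, averaged 29.2 CPM in leachate larvae and 28.9 CPM in control larvae (log2 0.014, 95% interval -0.23 to 0.26, adjusted p = 0.952 by edgeR). The sterol 27-hydroxylase family gene cyp27a7 averaged 33.4 CPM in leachate larvae and 29.6 CPM in control larvae (log2 0.17, adjusted p = 0.406 by edgeR). cyp7b1, the enzyme gene of the acidic pathway in mammals, averaged 22.8 CPM in leachate larvae and 25.3 CPM in control larvae (log2 -0.15, adjusted p = 0.405 by edgeR).

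Of 44 regulator genes tested, 5 were higher and 4 were lower in leachate larvae, 11.4% and 9.09% against 7.87% and 7.29% of all genes. The median log2 fold change of the list was -0.11, against -0.0026 for all genes tested. With library totals it was 0.024, against 0.13 for all genes, so it lay below the median of all genes with either scaling. The number lower was 2 with library totals and without any 1 of leachate 2, leachate 3 and control 1, 5 without control 2, and 8 with control 2 and leachate 1 both left out. The 4 genes of direct partners of the 7 that are given next, picked for their role after their values were seen, did not pass. fgfr4, which encodes the liver receptor for FGF19 in mammals, averaged 57.2 CPM in leachate larvae and 69.0 CPM in control larvae (log2 -0.27, adjusted p = 0.118 by edgeR), and its co-receptor gene klb averaged 7.13 CPM in leachate larvae and 6.59 CPM in control larvae (log2 0.11, adjusted p = 0.627 by edgeR). nr5a2, whose product activates cyp7a1 and cyp8b1 in mice and is held back by SHP, averaged 9.23 CPM in leachate larvae and 9.56 CPM in control larvae (log2 -0.050, adjusted p = 0.852 by edgeR). hnf4a, another activator of both enzyme genes in mice, averaged 17.8 CPM in leachate larvae and 17.4 CPM in control larvae (log2 0.027, adjusted p = 0.958 by edgeR).

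A relative of nr5a2 did fall. nr5a5 was at 15.4, 13.0 and 15 CPM in leachate larvae 1 to 3, against 27.5, 20.5 and 24.1 CPM in control larvae 1 to 3, without overlap (log2 -0.74 ± 0.13, adjusted p = 0.00445 by edgeR). sirt1, a deacetylase gene, fell as well, with means of 35.5 CPM in leachate larvae and 54.0 CPM in control larvae (log2 -0.61, adjusted p = 0.00445 by edgeR). The strongest rises of the list were in the clock genes nr1d1 (log2 3.71), dbpa (2.49), tefa (1.66) and nr1d2b (1.41), with an adjusted p of at most 1.12e-04 by edgeR. Products of nr1d1 and of the mouse relative of dbpa take part in the daily rhythm of cyp7a1 in mice. The labels give no hour of sampling, and whether the pools differed in it was not tested. Those 4 genes, nr5a5 and sirt1 kept their calls without any 1 sample, and the remaining calls of the list, nr1i2, vdra and vdrb, did not.

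Markers of the tissues that use the 7 genes were measured in the same pools, since in bulk samples fewer cells of a type and less RNA per cell cannot be told apart. The 18 hepatocyte markers summed to between 8733 and 9758 TPM in leachate samples and between 7525 and 8131 TPM in control samples. Their most abundant genes, apoa2 and fabp10a, did not pass the test (log2 0.28 and -0.29, adjusted p = 0.384 and 0.303 by edgeR). Of the 18, 3 were higher, hpx (log2 2.53), tfa (0.90) and apobb.1 (0.63), and 2 were lower, uox (log2 -1.03) and agxta (-0.72). That is 16.7% and 11.1% against 7.87% and 7.29% of all genes. The call of apobb.1 was lost when any 1 sample was left out, and that of agxta without 5 of the single samples. The number lower was 6 without control 2, 9 with control 2 and leachate 1 both left out, 6 by DESeq2 and 1 without any 1 of leachate 2, leachate 3, control 1 and control 3, and the number higher was 2 without any 1 sample. The median log2 value of the list was -0.22, of the opposite sign to its summed TPM.

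The 17 enterocyte markers summed to between 5475 and 6005 TPM in leachate samples and between 2431 and 4545 TPM in control samples, with the lowest sum in control 2. Of these, 15 had a positive log2 fold change, and 5 were called higher, anpepb, apoa4a, apoba, vil1 and si, and 1 lower, cdx1b. That is 29.4% and 5.88% against 7.87% and 7.29% of all genes. The calls of anpepb and apoa4a held without any 1 sample, and those of apoba, vil1 and si did not. The number higher was 7 without control 2, 9 with control 2 and leachate 1 both left out, 8 by DESeq2 and 3 without leachate 2. The call of cdx1b (log2 -0.69, adjusted p = 0.0488 by edgeR) was lost without any 1 of leachate 2, leachate 3, control 1 and control 2 and with library totals. Their median log2 value was 0.60, and the most abundant ones, apoa1a (log2 0.70, adjusted p = 0.0546 by edgeR) and chia.2 (log2 0.18, adjusted p = 0.635 by edgeR), did not pass. The 7 markers of lysosome-rich enterocytes, a cell type of the distal gut, gave 0 calls in either direction by edgeR, 0 at an unadjusted p under 0.05 and 0 by DESeq2 and limma-voom. Their summed TPM lay between 353 and 433 in leachate samples and between 307 and 349 in control samples. The median log2 fold change of these 7 was -0.0025, with 3 positive, so the fitted fold changes did not share the rise of the TPM sums. Of 9 cholangiocyte markers 1 was called, onecut1 (log2 0.66, adjusted p = 0.0167 by edgeR), a call lost without leachate 1 or leachate 3, and their sums overlapped. That is 11.1% higher and 0% lower against 7.87% and 7.29% of all genes. By edgeR 4 of the 9 had an unadjusted p under 0.05, and their log2 fold changes ran from -0.46 to 1.17. DESeq2 called 2 higher and 1 lower, and limma-voom 2 higher and 0 lower. The 14 exocrine pancreas markers summed to between 29410 and 29560 TPM in leachate samples and between 19790 and 48110 TPM in control samples, and had a median log2 value of -0.73, with all 14 values below 0. Of these 14, amy2a was the 1 called lower by edgeR (log2 -1.30, adjusted p = 0.0175 by edgeR, lost without any 1 sample other than control 2), while 7 had an unadjusted p under 0.05 and 7 were called lower by DESeq2. Of 11 goblet and enteroendocrine markers 2 were higher, agr2 and gcga, and 1 was lower, neurod1, 18.2% and 9.09% against 7.87% and 7.29% of all genes. Of 8 muscle markers 0 were called by edgeR, DESeq2 or limma-voom and 0 had an unadjusted p under 0.05. Of 8 neuron and eye markers 1 was higher, elavl3, and 4 were lower, mbpa, rho, opn1sw1 and crygm2d1, 12.5% and 50% against the same shares. The calls of gcga, elavl3 and rho were each lost without 5 of the single samples, which for gcga and elavl3 included control 2. Those of agr2, neurod1 and opn1sw1 held without any 1 sample, and those of mbpa and crygm2d1 did not. The summed TPM of the neuron and eye markers lay between 2539 and 2847 in leachate samples and between 3377 and 4900 in control samples, without overlap. The table lists no gene with fewer than 1 count in any sample, so a marker at 0 could not be seen. The part of these differences in the results on slc51a and the exporters was not tested, as neither was set against the markers. For slc10a2 it was not tested beyond the ratios that follow.

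**Figure D4:**
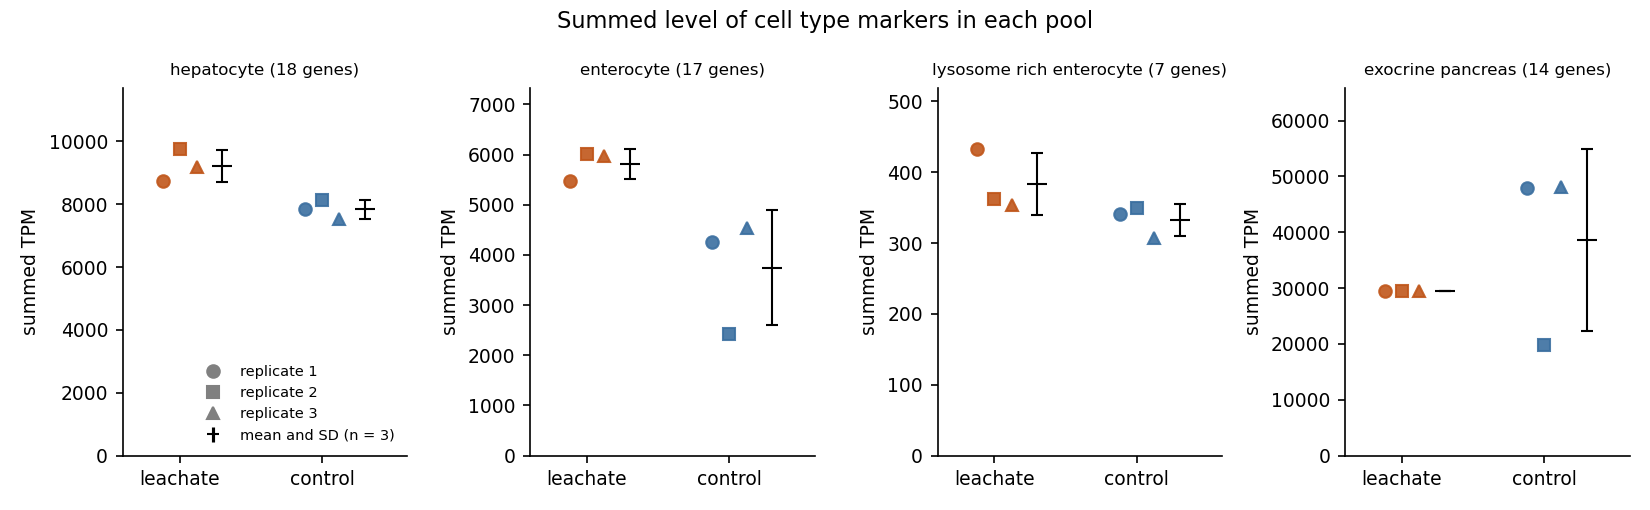
Summed TPM of the markers of 4 cell types in each pool, on a linear vertical axis from 0, with leachate pools on the left and control pools on the right of each panel. Shapes mark the replicate number and the bar with whiskers is the mean with its SD over 3 pools. Enterocyte sums run from 5475 to 6005 in leachate pools and from 2431 to 4545 in control pools, and control 2 is the lowest pool for enterocyte and exocrine pancreas markers.

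Set against the tissue markers of the same pool, cyp8b1 stood at 1.98, 2.02 and 1.82 TPM per 1000 TPM of hepatocyte markers in leachate larvae 1 to 3, against 1.16, 0.81 and 0.931 in control larvae 1 to 3. The leachate values all lay higher, by 1.02 on the log2 scale. This difference was 0.79 with CPM in place of TPM and 1.54 with the median of the markers in place of their sum. nr0b2a stood at 0.638, 0.474 and 0.633 TPM per 1000 TPM of hepatocyte markers in leachate larvae, against 1.11, 1.28 and 0.705 in control larvae, and was lower by 0.80 on the log2 scale without overlap. With the median of the markers the difference was -0.27 (exact permutation p = 0.6). RNA from whole larvae does not tell liver nr0b2a or nr1h4 from that of other tissues. Neither gene was set against the enterocyte markers. cyp7a1 stood at 3.49, 3.65 and 3.57 in leachate larvae, against 5.61, 4.37 and 4.00 in control larvae. On this scale its groups did not overlap (log2 difference -0.37), but with the median of the markers in place of their sum the difference was 0.15, of the other sign.

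For the intestinal genes the same measure used the enterocyte markers. slc10a2, fabp6 and fgf19 were not set against the markers of lysosome-rich enterocytes of the distal gut. Those had a median log2 fold change of -0.0025, against 0.60 for the enterocyte markers. Whether the ratios would be alike with that list was not tested. slc10a2 stood at 2.79, 2.69 and 2.41 TPM per 1000 TPM of enterocyte markers in leachate larvae 1 to 3, against 2.51, 2.55 and 2.93 in control larvae 1 to 3, and the groups overlapped with a log2 difference of -0.017. Control 2, the lowest pool for slc10a2 itself, lay within the leachate range on this scale. With the median of the markers in place of their sum the slc10a2 difference was -0.39 (exact permutation p = 0.3). fabp6 stood at 110, 97.0 and 77.2 in leachate larvae, against 102, 268 and 109 in control larvae, where control 2 lay far above all other pools. The exact two-sided permutation test over the 7 genes gave p = 0.1 for cyp7a1, cyp8b1 and nr0b2a, the smallest that 3 against 3 allow, and 0.233 adjusted over the 7. For slc10a2 p was 1, for fabp6 0.3, and for nr1h4 and fgf19 0.5, so none of the 7 could be called by this test.

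Genes whose log2 CPM ran most like that of each of the 7 over the 6 samples were picked by Pearson's r among 15981 named genes, as a description with no test. For cyp8b1 these were gfod2 (r = 0.999), fabp11a (0.996) and dynlrb1 (0.993). For nr0b2a they were rnf213b (r = 0.998), wdr59 (0.994) and sp2 (0.993). For slc10a2 they were slc7a9 (r = 0.994), which encodes a subunit of an amino acid transporter, gpia (0.991) and myl6 (0.989). For fabp6 they were ssna1 (r = 0.989), mpx (0.987) and gng8 (0.982). With 6 samples in 2 groups and this many genes, values near 1 arise readily, and all r share the same libraries and their depth.

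**Figure D5:**
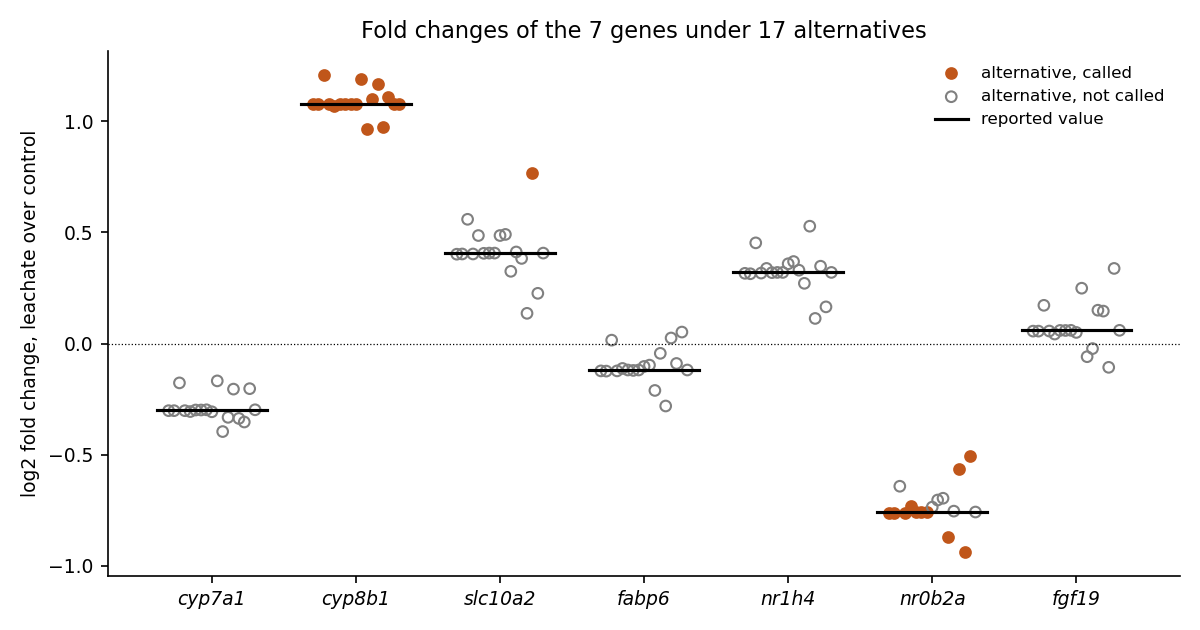
Log2 fold change of leachate over control (vertical axis) of each of the 7 genes under 17 alternative settings. Filled points passed the threshold of their setting and open points did not, and the black bar is the reported value. cyp8b1 passes in all 17, nr0b2a in 11, slc10a2 in 1, and cyp7a1, fabp6, nr1h4 and fgf19 in none.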

How the data were processed

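RNA of 6 pools of whole larvae, 3 leachate and 3 control, was sequenced after ribosomal RNA removal with a stranded total RNA kit, per the labels' protocols. The authors deposited 1 table of 24826 genes with read counts, TPM and FPKM for each sample, per the file headers, and every gene in it has at least 1 count in every sample. The submitters' processing notes list HISAT2, StringTie 2.1.3b, DESeq2 and GRCz11 without their roles, and use of strand in counting is not stated in the sources used here. No value reported here comes from the deposited FPKM.

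Counts were fitted with edgeR 4.0.16 in R 4.3.3 over all 6 samples, using TMM factors, filterByExpr and the robust quasi-likelihood test, with no covariate. Library totals ran from 37030725 to 48431952, so 3 counts equal 0.0623 to 0.0817 CPM. Replicates of a group differed by more than counting noise (chi-square of 8.56 to 89.8 per degree of freedom). Levels per marker and ratios between genes used deposited TPM with exact two-sided permutation tests.

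The members and lists were chosen with earlier results of these data known. Of 199 other listed symbols, 186 matched, by symbol or by a RefSeq synonym. Genes named were the 7, those called in a list, the 2 most abundant of each of the hepatocyte and enterocyte lists, and the most alike genes of 4 members; exceptions are stated. Alternatives covered scaling, tool, filter, threshold, replicate block and left-out samples. RefSeq's gene table of assembly GRCz12tu, another build than that of the files, was used for synonyms and for which genes overlap or lie next to each other, and no coordinates were taken from it. Sequences and promoter motifs were not analysed here. Other leachates of the study were not analysed here.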

Additional observations from a re-analysis of the deposited data

How the results depend on the processing

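Among the 17 alternatives, 1 was the reported fit with the threshold set at 0.01, where no fold change can differ. For the genes not called in the reported fit, keeping the side of the threshold meant staying uncalled. Of 119 fold changes of the 7 genes under 17 alternatives, 106 kept their direction and their side of the threshold. cyp8b1 (log2 0.96 to 1.19 without any 1 sample), cyp7a1 (-0.40 to -0.17) and nr1h4 (0.11 to 0.53) did so throughout. slc10a2 ran from 0.14 to 0.77 and nr0b2a from -0.94 to -0.56 without single samples. nr0b2a also missed the threshold with library totals (-0.64), with the replicate block (-0.74) and at an adjusted p under 0.01 (-0.76). fabp6, never called, turned sign with library totals (0.015), without control 2 and leachate 1 together (0.052), and over left-out samples (-0.28 to 0.025). fgf19, never called, ran from -0.11 to 0.25 over left-out samples.

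Counts moved more. Of the 7 genes, 0 were lower with library totals, with the block and at 0.01 by edgeR, where nr0b2a was the call lost (2 had an unadjusted p under 0.05 in the reported fit, and DESeq2 and limma-voom each called 1 lower), and left-out samples gave 1 to 2 higher and 0 to 1 lower. Synthesis genes called higher were 10 with library totals, 2 with the block, 1 at 0.01 and 1 to 3 over left-out samples, and those lower were 1 at 0.01 and 1 to 2 over left-out samples. Transport genes called lower were 0 with library totals, 3 without control 2 and leachate 1, 0 at 0.01 and 0 to 4 over left-out samples, while those higher were 5 to 6 over left-out samples. Regulators called lower were 2 with library totals, 2 with the block, 8 without control 2 and leachate 1, 2 at 0.01 and 2 to 5 over left-out samples, while those higher were 4 to 5 over left-out samples and 6 with library totals. The median log2 fold change of the regulators was 0.024 with library totals, against 0.13 for all genes. Hepatocyte markers called lower were 6 by DESeq2, 1 with the block, 9 without control 2 and leachate 1, 1 at 0.01 and 1 to 6 over left-out samples, and those higher were 2 over left-out samples. Enterocyte markers called higher were 8 by DESeq2, 9 without control 2 and leachate 1, 2 at 0.01 and 3 to 7 over left-out samples, and those lower were 0 with library totals, no filter, the robust option off and at 0.01, and 0 to 1 over left-out samples. Exocrine pancreas markers called lower were 7 by DESeq2 against 1 by edgeR. These marker counts were added after seeing the data, and the cause of the moves was not tested.

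Per marker, CPM in place of TPM gave -0.60 for cyp7a1 and 0.79 for cyp8b1 (log2). The median of the markers gave 0.15 for cyp7a1, 1.54 for cyp8b1, -0.39 for slc10a2, -0.99 for fabp6, 0.83 for nr1h4, -0.27 for nr0b2a and -0.82 for fgf19. Over left-out samples the ranges were -0.47 to -0.23 for cyp7a1, 0.90 to 1.16 for cyp8b1, -0.062 to 0.053 for slc10a2, -0.86 to -0.17 for fabp6, 0.057 to 0.55 for nr1h4, -1.05 to -0.62 for nr0b2a and -0.89 to -0.047 for fgf19.

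The replicate numbers gave no sign of pairing: deviations of same-numbered samples correlated at -0.046, -0.10 and 0.031. With the replicate block, 1317 genes were higher and 1248 lower. With 3 pools a group, the intervals set what could be seen: the widest of the 7 was that of slc10a2 (-0.30 to 1.12), whose SE was 0.30.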
